A study of Mus musculus with 2 samples.

Results

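The genes described here encode the cyclins, the cyclin-dependent kinases (Cdk) and their inhibitors, the proteins that license and copy DNA, and common markers of dividing cells. They were chosen by gene symbol: the numbered Ccna to Ccnh, Cdk, Cdkn1, Cdkn2, Mcm and Cdc series, plus Mki67, Top2a, Birc5, Pcna, Aurka, Aurkb, Plk1, Rrm1 and Rrm2. A gene had to have reads in at least 1 library, and Cdkn1c and Cdc42 were left out. The rule gave 65 of the 18580 annotated genes with reads, and 62 of the 65 had reads in both libraries. Ccnb3, Cdk3 and Cdkn2a, whose symbols the rule also covers, had no read in either library.

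Long-read RNA sequencing, in which a read can span a whole cDNA molecule, was done on adrenal gland tissue taken at 10 days of age from males of the F1 hybrid strain B6CASTF1/J. The series has 1 group with 2 biological replicates and no treatment, deletion or transgene in its labels, so the comparison between the libraries gives the size of the replicate error and not the effect of a condition. Both samples carry the same donor in the labels, and the animal of the second one is named inconsistently, so the p-values measure only the spread between the reads of these libraries, which may be technical. In whole tissue, fewer cells of a type and less RNA per cell cannot be told apart.

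In a dividing cell, D-type cyclins switch on Cdk4 and Cdk6 in G1, E- and A-type cyclins act with Cdk2 around the start of DNA synthesis, and B-type cyclins with Cdk1 bring the cell into mitosis. The Mcm ring is loaded on replication origins while Cdk activity is low and is opened as the helicase of the fork, and the anaphase promoting complex later marks B-type cyclins for destruction. In the adrenal cortex after birth, cells divide mainly in the outer zone and their descendants move inward.

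Replicate 1 held 927914 reads on annotated genes and replicate 2 held 1303420. Levels are counts per 1000000 such reads (CPM), given as mean ± SD (n = 2), with exact Poisson intervals at 95%. A long read was counted once whatever its length, so the counts were not divided by gene length. Whether long transcripts were read less often than short ones was not tested, so levels of different genes compare reads and not molecules. The limit that a count of 0 allows, 3 reads, came to 3.23 CPM in the first library and to 2.30 CPM in the second. Replicate 2 had shorter models (mean 1904 nt per read against 2335 nt) and more reads in fragments of genes. Adrenal cortex and medulla markers were abundant but summed lower in replicate 2, at 19870 against 30930 CPM for 7 cortex genes and 6063 against 11470 CPM for 6 medulla genes. Lists of markers of other tissues had reads in both libraries and mostly summed higher in replicate 2. The 8 liver genes had 17350 and 45830 CPM, 7 erythroid genes 1332 and 4604 CPM, and 5 skeletal muscle genes 805 and 2459 CPM. The 8 bone and neutrophil precursor genes had 451 and 1326 CPM, and 7 macrophage genes 231 and 459 CPM. Col1a1 alone held 428 and 1211 CPM of the bone and neutrophil precursor sum. In that list Bglap (0 and 77 reads), Elane (0 and 9) and Prtn3 (2 and 0) had no read in 1 library. The 5 brown fat genes had 8106 and 9811 CPM and the 6 endothelial genes 682 and 543 CPM, and every gene of these marker lists had reads in at least 1 library. Besides Prtn3, some genes went against the sum of their list. In the cortex list they were Mc2r (36.6 and 64.5 CPM) and Cyp11a1 (7423 and 7442 CPM), and in the medulla list Pnmt (639 and 707 CPM). In the erythroid list they were Alas2 (98.1 and 56.0 CPM) and Slc4a1 (2 and 2 reads), and in the brown fat list Ucp1 (4451 and 2927 CPM). In the endothelial list they were Egfl7 (183 and 254 CPM), Tie1 (72.2 and 113 CPM) and Cdh5 (12.9 and 16.1 CPM). The part of these tissues in the levels given here was not tested.

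The genes of the cycle were read at low to moderate levels. The 65 members summed to 3604 reads (3884 CPM) in replicate 1 and 3914 reads (3003 CPM) in replicate 2. Mean levels ran from 0.384 CPM for Ccna1 and Cdk15 to 292 CPM for Cdc37, with a median of 37.1 CPM. In all, 9 members had a mean of 100 CPM or more, 41 lay from 10 to under 100 CPM and 15 were under 10 CPM. At 10 CPM or more in both libraries were 46 members (70.77%), beside 43.09% of all genes with reads.

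**Figure D1:**
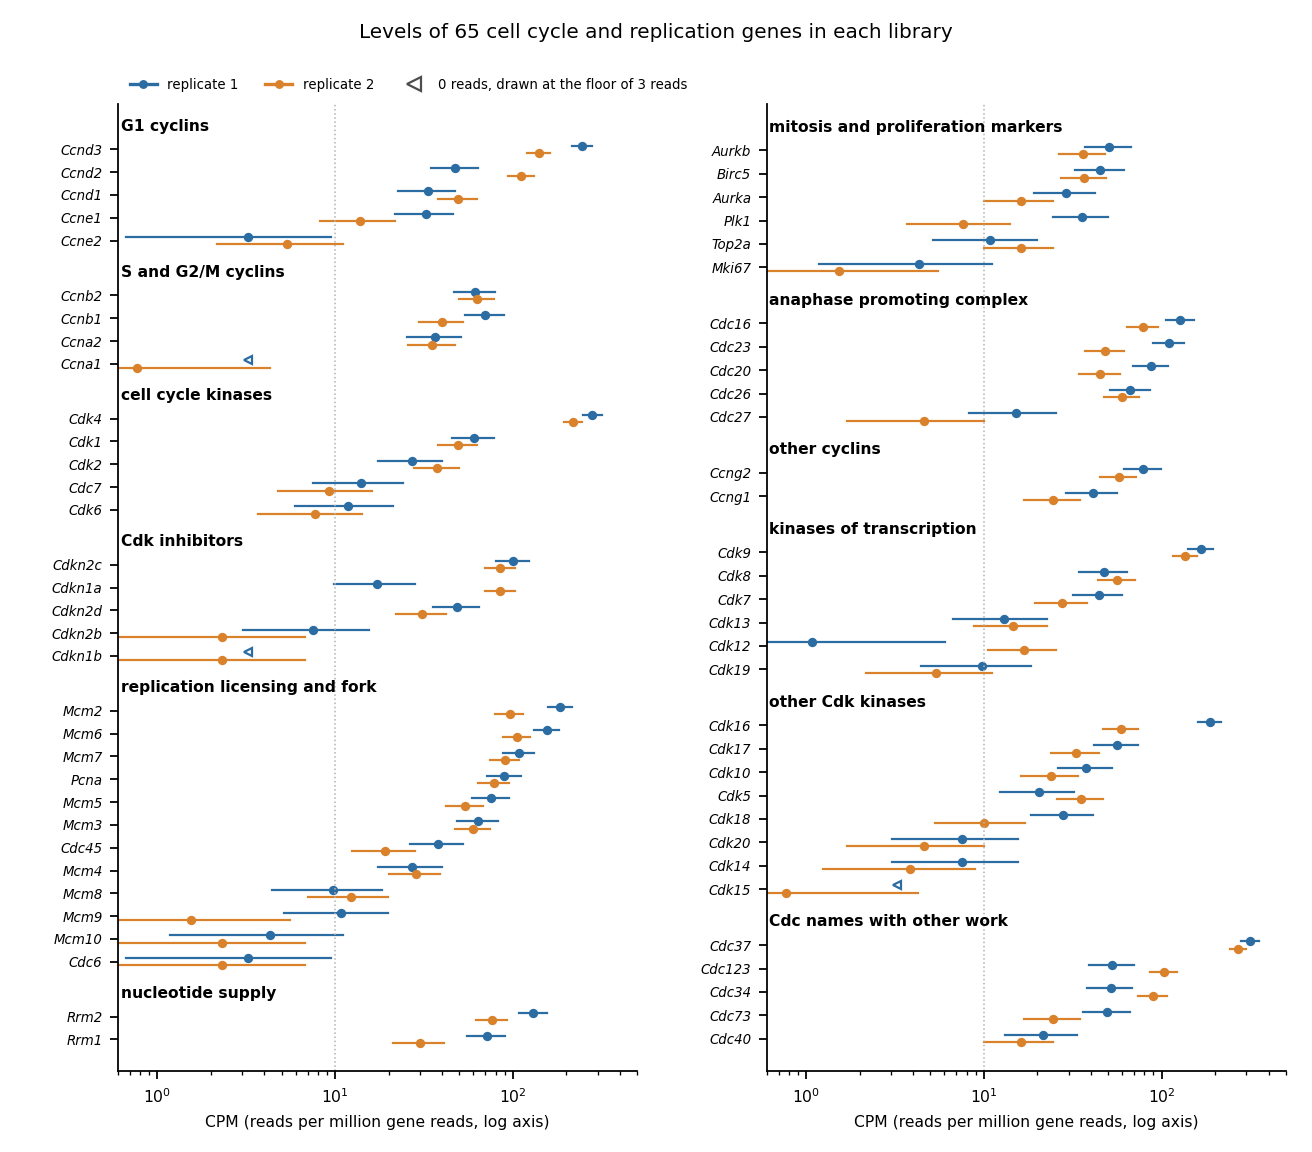
Level of each of the 65 genes in each library, as CPM on a log axis, with exact Poisson 95% intervals (lines are clipped at the left edge). Genes are grouped by role and ordered by mean; the dotted line marks 10 CPM, which 46 members reached in both libraries, and open triangles mark 0 reads at the floor of 3 reads.

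Of the 59 members with 10 or more reads over both libraries, 24 (40.7%) differed between the libraries when the reads of each gene were set against the rest of its library in a two-sided Fisher's exact test (Benjamini-Hochberg adjustment over 11650 genes, threshold 0.05). The background was 35.1% of all genes tested, so the share of members was near it. Higher in replicate 2 were 5 members, against a background of 13.0%, and lower were 19, against 22.2%. The median log2 ratio of replicate 2 over replicate 1 was -0.49 over the tested members and -0.25 over all tested genes. TMM scaling (trimmed mean of M-values) moved the median of all genes to 0.01 and that of the members to -0.23, and then 7 members were higher and 8 lower, or 25.4% called beside 28.4% of all genes (backgrounds 17.0% higher and 11.4% lower). DESeq2 size factors gave 7 higher and 9 lower (backgrounds 16.9% and 11.6%, or 28.4% in all). With no filter on low counts 5 were higher and 16 lower (backgrounds 7.54% and 12.6%, or 20.1% in all), and at 2-fold or more 3 were higher and 9 lower (backgrounds 9.67% and 10.4%, or 20.1% in all). Annotated models alone gave 4 higher and 14 lower of 49 tested (backgrounds 13.6% and 25.5%, or 39.1% in all), and without Genomic models, which are single pieces that match no annotated splicing, 5 were higher and 17 lower of 57 (backgrounds 13.3% and 23.6%, or 36.9% in all). Called in the same direction under 6 settings (the total, TMM and DESeq2 scalings, annotated models alone, Genomic models left out, and the ratio expected from transcript length) were 3 members higher in replicate 2 (Ccnd2, Cdkn1a and Cdc123) and 7 lower (Ccnd3, Mcm2, Rrm1, Plk1, Cdc20, Cdc23 and Cdk16). This joint count was not made over all genes, so it has no background and does not set the members apart.

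**Figure D2:**
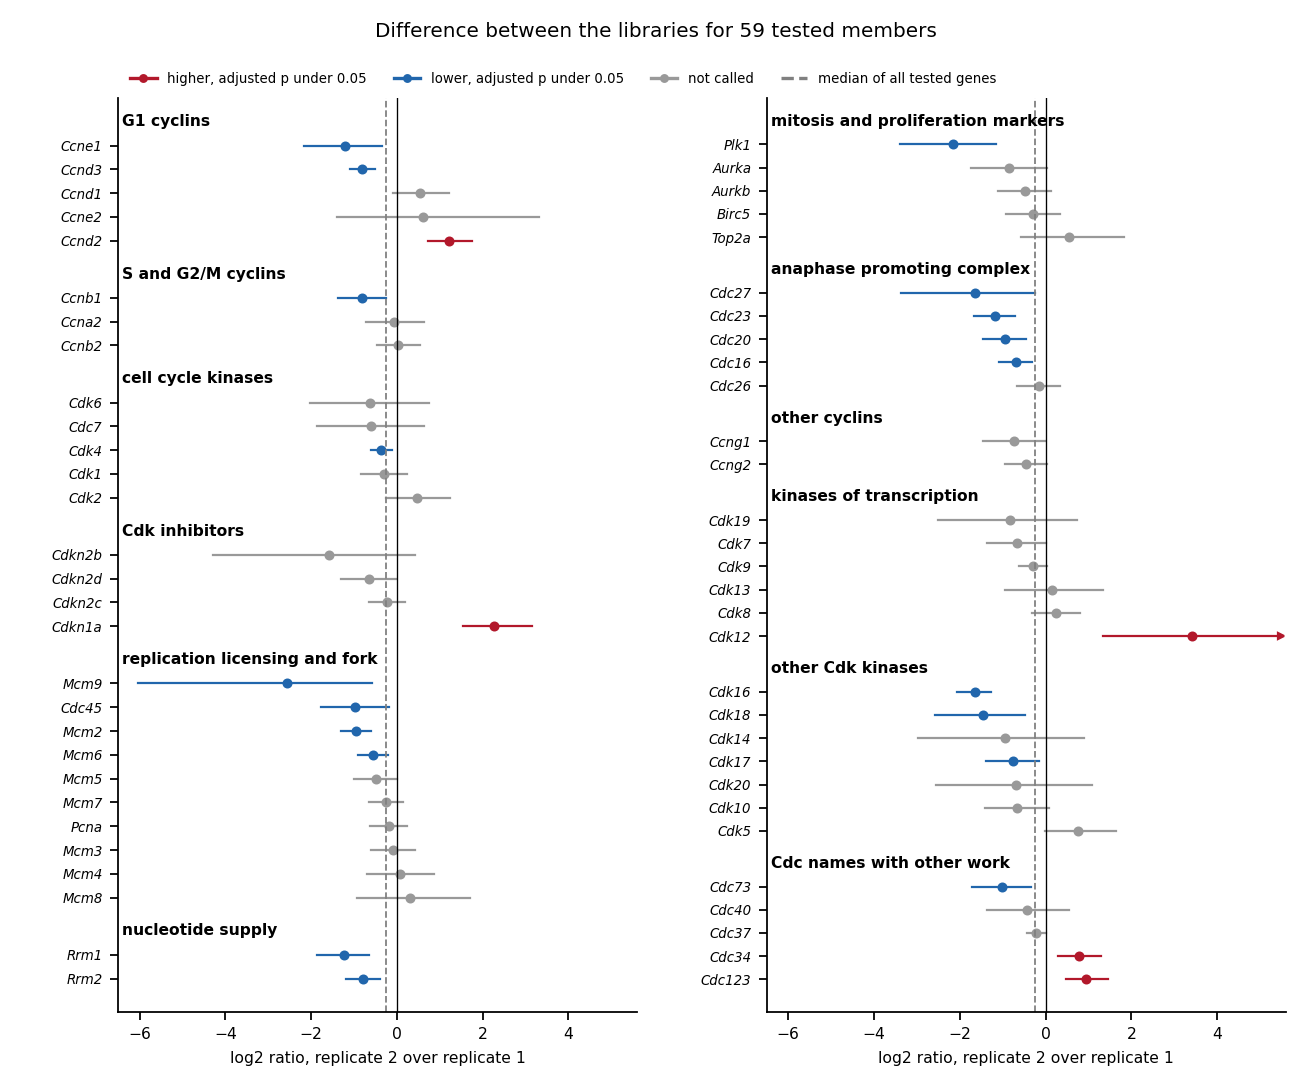
Log2 ratio of replicate 2 over replicate 1 for the 59 tested members, with exact 95% intervals from the counts of both libraries (the interval of Cdk12 runs past the right edge). Red points are the 5 members called higher and blue points the 19 called lower by Fisher's exact test, grey points were not called, and the dashed line is the median of all tested genes at -0.25.

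The cyclins of G1 were dominated by Ccnd3 in replicate 1 and shared between Ccnd3 and Ccnd2 in replicate 2. Ccnd3, a D-type cyclin that partners Cdk4 and Cdk6, had 228 reads in replicate 1 and 183 in replicate 2, or 246 and 140.4 CPM (193 ± 74.5). Ccnd2, a D-type cyclin known as a direct target of growth signals in several tissues, had 44 and 145 reads, or 47.4 and 111 CPM (79.3 ± 45.1). Ccnd1, the third D-type cyclin, had 31 and 64 reads, or 33.4 and 49.1 CPM (41.3 ± 11.1). Between the libraries Ccnd3 was lower in the second by 1.75-fold (adjusted p = 2.01e-07, Fisher's exact test) and Ccnd2 was higher by 2.35-fold (adjusted p = 1.80e-06, Fisher's exact test), while Ccnd1 did not pass (log2 ratio 0.54 ± 0.32, SE from counting). Ccnd1 passed under TMM scaling, with a log2 ratio of 0.81, and had a log2 ratio of 0.03 on annotated models alone. As shares of all D-type cyclin reads, Ccnd3 had 75.3% (95% Clopper-Pearson interval 70.0 to 80.0) and 46.7% (41.7 to 51.8), Ccnd2 had 14.5% (10.8 to 19.0) and 37.0% (32.2 to 42.0), and Ccnd1 had 10.2% (7.06 to 14.2) and 16.3% (12.8 to 20.4). The intervals of Ccnd3 and of Ccnd2 did not overlap between the libraries, and the shares were not tested.

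A technical value stands beside each of these genes. Of the Ccnd2 reads, 11 and 41 were Genomic models, single-exon pieces within the last exon for all 11 and for 40 of the 41. Gm43126, an annotated gene that overlaps Ccnd2 on the opposite strand, had 34 and 106 reads. The sources used here do not give whether the counting used strand, so unspliced reads of the pair cannot be told apart. Reads of the annotated Ccnd2 transcript of 5 exons numbered 30 and 91. Of the Ccnd3 reads, a single-exon model of 1035 nt within the last exon took 5 in replicate 1 and 43 in replicate 2. Of the Ccnd1 reads, single-exon models within the last exon took 9 in replicate 1 (2286 nt) and 34 in replicate 2 (2841 nt). Counted on annotated models alone, Ccnd2 still differed (33 and 95 reads), as did Ccnd3 (216 and 130 reads), while Ccnd1 had 21 and 28 reads and did not. On mm10, Ccnd3 lies at chr17:47505051-47599691 (plus strand) and Ccnd2 at chr6:127125162-127152193 (minus strand).

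The E-type cyclins, partners of Cdk2 at the start of S phase, were less abundant than the D-type cyclins. Ccne1 had 30 and 18 reads, or 32.3 and 13.8 CPM (23.1 ± 13.1), and was 2.34-fold lower in the second library (adjusted p = 0.0173, Fisher's exact test), a call that TMM scaling ended (adjusted p = 0.0874, exact binomial test). Ccne2 had 3 and 7 reads (4.30 ± 1.51 CPM), too few to place it beyond its counting error. Over the 5 cyclins of G1 the summed level was 362 and 320 CPM, a difference whose sign TMM scaling turned (331 and 351 scaled CPM).

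The cyclins of S phase and mitosis, Ccna1 apart, lay from 36 to 62 CPM in their means. Ccna2, which partners Cdk2 and then Cdk1, had 34 and 46 reads, or 36.6 and 35.3 CPM (36.0 ± 0.95). Ccnb1 and Ccnb2, the B-type cyclins of mitosis, had 65 and 52 reads (55.0 ± 21.3 CPM) and 57 and 82 reads (62.2 ± 1.05 CPM). Ccna1, which is known mainly from the germ line, had 0 reads in replicate 1 and 1 in replicate 2. Ccnb1 was lower in replicate 2 (log2 ratio -0.81 ± 0.27; adjusted p = 0.010, Fisher's exact test) and lost the call under TMM scaling (adjusted p = 0.117, exact binomial test), and Ccna2 and Ccnb2 had log2 ratios of -0.06 and 0.03. For Ccnb2 the total was nearly the same in both libraries while the kind of read was not. A model of its last 2 exons alone (449 nt) took 7 reads in replicate 1 and 42 in replicate 2, and full annotated reads of the gene numbered 40 and 33. Full annotated reads here are all reads classed as an annotated transcript (Known), whatever the length of that transcript.

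Among the kinases of the cycle, Cdk4 stood far above the rest. Cdk4, the kinase that D-type cyclins switch on, had 260 and 284 reads, or 280.2 and 218 CPM (249 ± 44.1). Cdk6, its close relative, had 11 and 10 reads (9.76 ± 2.96 CPM). Cdk4 thus took 95.9% (95% Clopper-Pearson interval 92.9 to 98.0) and 96.6% (93.8 to 98.4) of the reads of the pair, and these intervals overlapped. Of the annotated Cdk6 reads, 6 of 7 and 2 of 5 were of Cdk6-201 (2470 nt) and the rest of Cdk6-202 (11525 nt). Cdk4-201, the most-read Cdk4 transcript, has 2053 nt, and the part of transcript length in this share was not tested. Cdk1, the kinase of mitosis, had 56 and 64 reads (54.7 ± 7.95 CPM), and Cdk2 had 25 and 49 reads (32.3 ± 7.53 CPM). Cdc7, the kinase that starts firing of licensed origins, had 13 and 12 reads (11.6 ± 3.40 CPM). Of the 5 kinases only Cdk4 passed (log2 ratio -0.36 ± 0.12; adjusted p = 0.0132, Fisher's exact test), beside 35.1% of all genes tested. Under TMM scaling the log2 ratio of Cdk4 was -0.10 (adjusted p = 0.635, exact binomial test). Tspan31, on the opposite strand and overlapping Cdk4, had 150 and 166 reads, and unspliced reads of the pair cannot be told apart without strand. Of the Cdk4 reads, 234 of 260 and 258 of 284 followed its annotated splicing.

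The inhibitors of these kinases were led by Cdkn2c. Of the 4 tested only Cdkn1a differed between the libraries, beside 35.1% of all genes tested. Cdkn2c (p18), an INK4 inhibitor of Cdk4 and Cdk6, had 93 and 111 reads, or 100.2 and 85.2 CPM (92.7 ± 10.7). Cdkn2d (p19) had 45 and 40 reads (39.6 ± 12.6 CPM), and Cdkn2b (p15) had 7 and 3 reads (4.92 ± 3.71 CPM). Within the INK4 genes, Cdkn2c held 64.1% (55.8 to 71.9) and 72.1% (64.3 to 79.0) of reads, so the order of the 3 genes was the same in both libraries. Cdkn1a (p21), a target of p53 that blocks several Cdks, had 16 reads in replicate 1 and 111 in replicate 2, or 17.2 and 85.2 CPM (51.2 ± 48.0). Cdkn1a (chr17:29090976-29100727, plus strand, mm10) was 4.94-fold higher in the second library, with a 95% interval of the ratio from 2.91 to 8.94 (adjusted p = 2.79e-11, Fisher's exact test). Of the replicate 2 reads, 28 were a single-exon model of 1379 nt within the last exon, and the full annotated reads alone were 14 and 77. Cdkn1b (p27), a Cip/Kip inhibitor of Cdk2, was listed with 0 and 3 reads.

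**Figure D3:**
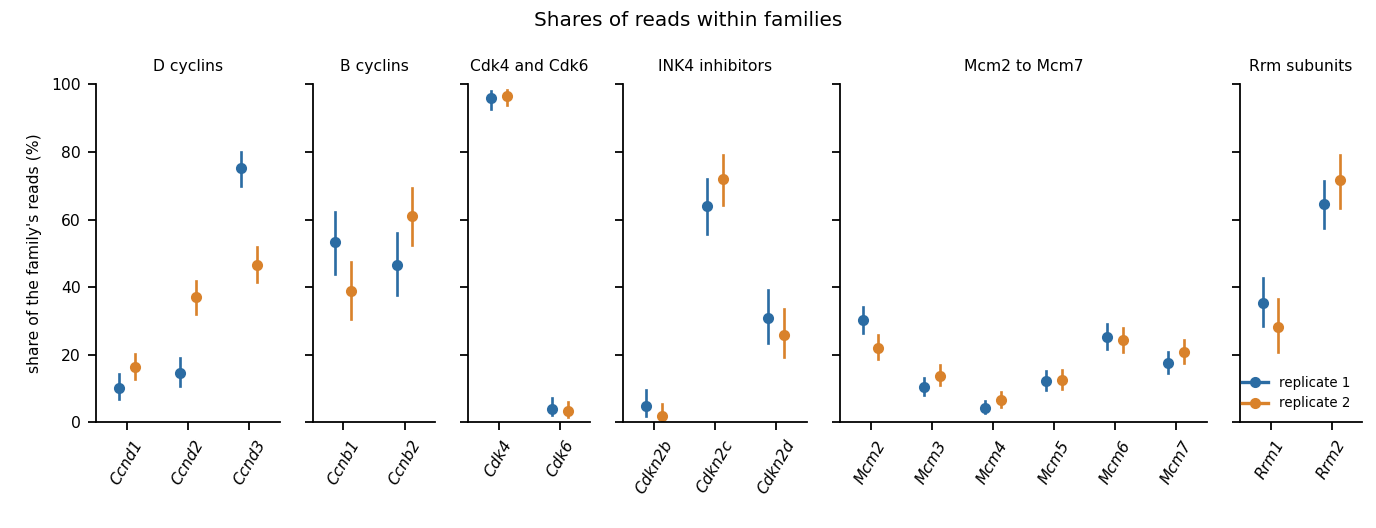
Share of each gene in the reads of its family in replicate 1 (blue) and replicate 2 (orange), in percent, with Clopper-Pearson 95% intervals. The Cdk4 share stayed at 95.9% and 96.6%, while Ccnd3 held 75.3% of D-type cyclin reads in replicate 1 and 46.7% in replicate 2.

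The genes of replication licensing and of the fork were the largest role by summed level, with 769.5 CPM in replicate 1 and 549 CPM in replicate 2 over 12 genes. Of the 10 tested, 4 were lower in replicate 2 (Mcm2, Mcm6, Mcm9 and Cdc45), none was higher and 6 did not pass, beside 22.2% lower and 13.0% higher over all genes tested; only Mcm2 kept its call under TMM scaling. The 6 subunits of the Mcm2 to Mcm7 ring had 570 and 564 reads in all, or 614 and 433 CPM. Mcm2 had 172 and 125 reads, or 185 and 95.9 CPM (141 ± 63.3), and Mcm6 had 144 and 137 reads, or 155 and 105 CPM (130.1 ± 35.4). Mcm7 had 100 and 117 reads (98.8 ± 12.7 CPM), Mcm5 70 and 70 reads (64.6 ± 15.4 CPM), and Mcm3 59 and 78 reads (61.7 ± 2.65 CPM). Mcm4 was the lowest of the ring, with 25 and 37 reads (27.7 ± 1.02 CPM), so the highest subunit exceeded the lowest by 6.88-fold in replicate 1 and 3.70-fold in replicate 2. Mcm2 and Mcm6 were the 2 highest subunits and Mcm4 the lowest in both libraries.

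Mcm2 (chr6:88883474-88898780, minus strand, mm10) was 1.93-fold lower in the second library (adjusted p = 2.02e-07, Fisher's exact test) and Mcm6 1.48-fold lower (adjusted p = 0.00563, Fisher's exact test). The sliding clamp Pcna had 83 and 102 reads, or 89.5 and 78.3 CPM (83.9 ± 7.91), which did not pass (log2 ratio -0.19 ± 0.21). Its processed copy Pcna-ps2 had 3 and 3 reads. Cdc45, which joins the ring to form the active helicase, had 35 and 25 reads (28.5 ± 13.1 CPM; adjusted p = 0.0366, Fisher's exact test). Mcm8 and Mcm9, which act together in repair by recombination, had 9 and 16 reads (11.0 ± 1.82 CPM) and 10 and 2 reads (6.16 ± 6.54 CPM), and Mcm9 was lower in the second library (adjusted p = 0.019, Fisher's exact test), with no full annotated read in either. Mcm10 had 4 and 3 reads, and the loader Cdc6 had 3 and 3 reads, at or just above the limit of 3 reads.

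The promoters of these genes were searched for strings bound by E2F factors, the regulators of S-phase genes, as a description of sequence. A link to the difference between the libraries was not tested. RefSeq promoters of the build GRCm38.p6, from 250 bases before to 50 after the start, matched 55 of the 65 members and gave 61 promoters. The strings TTTCCCGC, TTTGGCGC and TTCCCGCC were sought on both strands, and the TTTCCCGC and TTCCCGCC strings overlap each other where the letters run on. At least 1 of them lay in 5 of 9 Mcm promoters (55.56%) and in 10 of 61 member promoters (16.39%), beside 3.21% of all 32851 promoters of the table. TTTGGCGC alone was in 4 of 9 Mcm promoters (44.4%) and in 0.514% of all promoters. The CCAAT box, bound by NF-Y, lay in 9 of 9 Mcm promoters, in 9 of 10 promoters of the mitotic genes described next, in 55.74% of member promoters and in 37.4% of all promoters. The 9 Mcm promoters belong to 8 genes, and Mcm4 had no entry in the table. Windows with the string in capitals follow for Mcm6 (both matches), Mcm5, Rrm1, Cdc6 and Cdk2, on the strand of each gene; where the string reads on the other strand its complement is in capitals. A match is a run of letters and does not show binding. Of the 4 replication genes called lower only Mcm6 held a string.
Mcm6 promoter (minus strand, chr1:128359721-128359839): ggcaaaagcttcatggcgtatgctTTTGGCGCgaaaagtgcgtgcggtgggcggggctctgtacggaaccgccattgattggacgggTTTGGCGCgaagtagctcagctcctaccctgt
Mcm5 promoter (plus strand, chr8:75109336-75109391): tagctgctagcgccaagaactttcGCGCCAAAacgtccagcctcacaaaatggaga
Rrm1 promoter (plus strand, chr7:102441604-102441659): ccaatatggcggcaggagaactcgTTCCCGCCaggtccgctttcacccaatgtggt
Cdc6 promoter (plus strand, chr11:98907989-98908044): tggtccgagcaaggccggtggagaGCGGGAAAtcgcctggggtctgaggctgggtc
Cdk2 promoter (minus strand, chr10:128705160-128705215): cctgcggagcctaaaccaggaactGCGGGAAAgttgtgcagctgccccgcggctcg

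Both subunits of ribonucleotide reductase, which makes deoxyribonucleotides for DNA synthesis, were lower in replicate 2, as were 22.2% of all genes tested. Rrm1, the large subunit, had 66 and 39 reads, or 71.1 and 29.9 CPM (50.5 ± 29.1). Rrm2, the small subunit whose level follows S phase, had 121 and 99 reads, or 130.4 and 76.0 CPM (103 ± 38.5). The difference was 2.38-fold for Rrm1 (chr7:102441695-102469771, plus strand, mm10; adjusted p = 0.000113, Fisher's exact test) and 1.72-fold for Rrm2 (adjusted p = 0.000422, Fisher's exact test). Set against the ratio expected from the length of its transcript, Rrm2 no longer passed (log2 ratio -0.39; adjusted p = 0.154, exact binomial test), while Rrm1 did. Rrm2 exceeded Rrm1 in both libraries, with 64.7% (57.4 to 71.5) and 71.7% (63.5 to 79.1) of the pair's reads.

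The markers of mitosis and proliferation were read at 22 to 43 CPM for most genes and lower for Top2a and Mki67. Aurkb, the kinase of the chromosomal passenger complex, had 47 and 47 reads (43.4 ± 10.3 CPM), and Birc5 (survivin), of the same complex, had 42 and 48 reads (41.04 ± 5.97 CPM). Aurka, the kinase of spindle poles, had 27 and 21 reads (22.6 ± 9.18 CPM). Plk1, a kinase needed for entry into and exit from mitosis, had 33 and 10 reads, or 35.6 and 7.67 CPM (21.6 ± 19.7). Plk1 (chr7:122159439-122169873, plus strand, mm10) was 4.64-fold lower in the second library (log2 ratio -2.16 ± 0.52; adjusted p = 2.85e-05, Fisher's exact test), and the other 4 genes tested did not pass. Over all genes tested 35.1% were called and 22.2% were lower. Top2a, which untangles chromosomes, had 10 and 21 reads (13.4 ± 3.77 CPM), and Mki67, the gene of the Ki-67 antigen, had 4 and 2 reads (2.92 ± 1.96 CPM). No read of Top2a or Mki67 was of a full annotated transcript: all were fragments or unannotated models.

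The cell cycle homology strings TTTGAA and TTCGAA are bound by the DREAM and MuvB complexes, which regulate mitotic genes. They were sought on both strands of the promoters of the mitotic genes, and windows are shown for 4 genes read in both libraries. TTTGAA lay in 7 of 10 promoters of the cyclins of S phase and mitosis, the mitosis markers, Cdk1 and Cdc20 (70.0%), beside 17.9% of all promoters. Over all members it lay in 14 of 61 promoters (22.95%), near the share of all promoters. Ccna2 and Aurkb had no entry in the table. None of the 10 held an E2F string. TTCGAA, which reads the same on both strands, lay in 1 of the 10 (Top2a) and in 1.56% of all promoters. A match here is a description too. Windows follow for Cdk1, Mki67, Cdc20 and Ccnb2, with the string in capitals.
Cdk1 promoter (minus strand, chr10:69352898-69353007): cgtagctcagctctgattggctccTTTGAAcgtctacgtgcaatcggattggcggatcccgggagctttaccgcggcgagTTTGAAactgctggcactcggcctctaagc
Mki67 promoter (minus strand, chr7:135716448-135716519): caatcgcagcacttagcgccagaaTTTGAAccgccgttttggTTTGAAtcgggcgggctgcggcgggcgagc
Cdc20 promoter (minus strand, chr4:118437332-118437385): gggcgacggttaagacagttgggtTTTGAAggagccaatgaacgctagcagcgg
Ccnb2 promoter (minus strand, chr9:70421535-70421574): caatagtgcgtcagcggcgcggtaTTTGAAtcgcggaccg

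**Figure D4:**
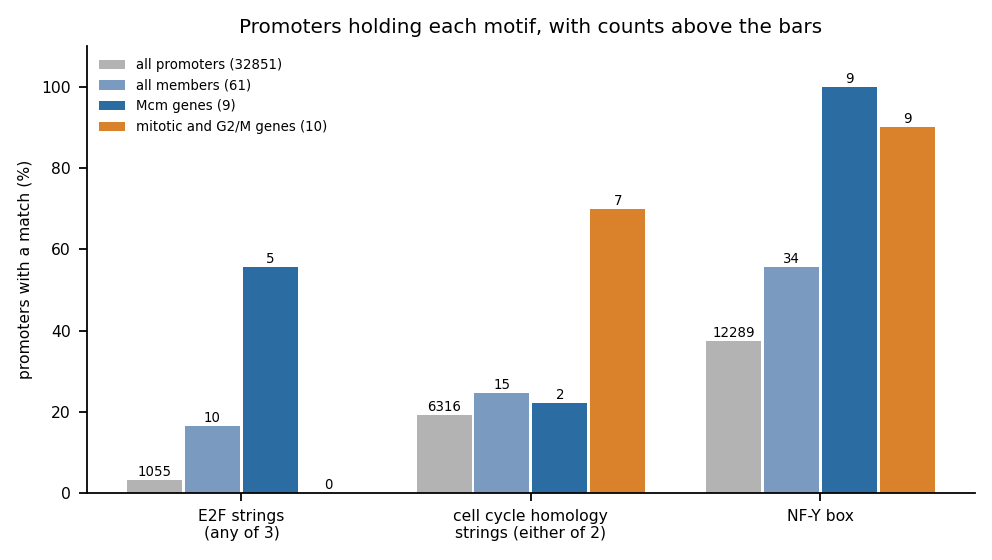
Share of RefSeq promoters (GRCm38.p6) that hold each kind of string, in percent, with the number of promoters above each bar. The Mcm promoters held E2F strings in 5 of 9 and the mitotic and G2/M promoters held cell cycle homology strings in 7 of 10, beside 3.21% and 19.2% of all promoters. Over all member promoters the shares were 16.39% and 24.59%.

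The members of the anaphase promoting complex, the ubiquitin ligase that ends mitosis, were Cdc16, Cdc23, Cdc26, Cdc27 and the activator Cdc20. These 5 genes had summed levels of 406 and 236 CPM in the 2 libraries, and 4 of the 5 were lower in replicate 2, beside 22.2% of all genes tested. Of 10 further subunits that are not members, Anapc1, Anapc4 and Anapc5 were lower, Anapc11 and Anapc13 were higher and 5 did not pass. Cdc16, a subunit built of tetratricopeptide repeats, had 118 and 102 reads, or 127 and 78.3 CPM (103 ± 34.6). Cdc23, of the same build, had 102 and 63 reads, or 109.9 and 48.3 CPM (79.1 ± 43.6), and Cdc20, the activator in early mitosis, had 81 and 59 reads, or 87.3 and 45.3 CPM (66.3 ± 29.7). Cdc26, a small stabilising subunit, had 62 and 78 reads (63.3 ± 4.93 CPM) and did not pass. Cdc27, a repeat subunit that binds the activators, had 14 and 6 reads (9.85 ± 7.41 CPM). The log2 ratios of those called were -0.70 ± 0.20 for Cdc16 (adjusted p = 0.00183), -1.18 ± 0.23 for Cdc23 (adjusted p = 2.07e-06), -0.94 ± 0.25 for Cdc20 (adjusted p = 0.000818) and -1.65 ± 0.70 for Cdc27 (adjusted p = 0.0365), each by Fisher's exact test. Under TMM scaling Cdc23 and Cdc20 kept their calls and Cdc16 (adjusted p = 0.0801) and Cdc27 (adjusted p = 0.117) did not, by exact binomial tests. Kif20a overlaps Cdc23 on the opposite strand and had 64 and 24 reads, and Elovl1 overlaps Cdc20 in the same way with 76 and 85.

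Other members carry cyclin, Cdk or Cdc names but work mainly outside the core cycle. Among the cyclins, Ccng2, an atypical cyclin linked to arrest of the cycle, had 73 and 75 reads (68.1 ± 14.9 CPM) and Ccng1, a target of p53, 38 and 32 reads (32.8 ± 11.6 CPM), and neither passed. Cdk9, the kinase that releases paused RNA polymerase, was the highest of the kinases of transcription, with 154 and 177 reads (151 ± 21.3 CPM). Cdk12, another such kinase, had 1 and 22 reads and was called higher (adjusted p = 0.000821, Fisher's exact test), but none of its reads was a full annotated one and 13 of the 22 were Genomic. Without Genomic models Cdk12 did not pass (adjusted p = 0.114, Fisher's exact test). The other 4 kinases of transcription (Cdk7, Cdk8, Cdk13 and Cdk19) ran from 7.54 to 51.7 CPM in their means, and none passed.

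Cdk16, a PCTAIRE kinase known from brain and testis, showed the lowest p-value of all members. Cdk16 (chrX:20687954-20699880, plus strand, mm10) had 173 reads in replicate 1 and 77 in replicate 2, or 186 and 59.1 CPM (123 ± 90.1), and was 3.16-fold lower (adjusted p = 5.35e-17, Fisher's exact test). Its full annotated reads numbered 110 and 23. Cdk17 had 52 and 43 reads (44.5 ± 16.3 CPM; adjusted p = 0.0365) and Cdk18 26 and 13 reads (19.0 ± 12.8 CPM; adjusted p = 0.00750), both lower by Fisher's exact test, and both calls ended under TMM scaling (adjusted p = 0.227 and 0.0517, exact binomial tests). With DESeq2 size factors Cdk18 kept its call (adjusted p = 0.0372, exact binomial test). The other 5 kinases of this kind (Cdk5, Cdk10, Cdk14, Cdk15 and Cdk20) ran from 0.384 to 30.8 CPM and were not called; Cdk5, which acts in neurons with its partner p35, passed under TMM scaling with a log2 ratio of 1.03.

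Cdc37, the co-chaperone that brings kinases to Hsp90, was the highest member of all, with 291 and 353 reads, or 314 and 271 CPM (292 ± 30.3), and did not pass. Cdc123, an assembly factor of translation initiation factor eIF2, had 49 and 134 reads (77.8 ± 35.4 CPM) and was 1.95-fold higher in the second library (adjusted p = 0.00023, Fisher's exact test). Cdc34, a ubiquitin-conjugating enzyme of the SCF ligases, had 48 and 116 reads (70.4 ± 26.4 CPM) and was higher by 1.72-fold (adjusted p = 0.00622, Fisher's exact test). Of the Cdc34 reads, single-exon models within the last exon took 6 in replicate 1 and 42 in replicate 2, and on annotated models alone the gene did not pass (log2 ratio 0.53; adjusted p = 0.133, Fisher's exact test). Cdc73, a subunit of the Paf1 complex of transcription, had 46 and 32 reads (37.1 ± 17.7 CPM) and was lower (adjusted p = 0.010, Fisher's exact test), which TMM scaling ended (adjusted p = 0.0749, exact binomial test). Cdc40, a splicing factor, had 20 and 21 reads (18.8 ± 3.85 CPM).

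Over all genes the log2 ratios were higher for transcripts under 2000 nt than for longer ones, and the medians of the longer classes were alike. Of the 17 tested members whose most-read annotated transcript was under 2000 nt, 3 were higher and 2 lower in replicate 2, with a median log2 ratio of -0.30; over all 3896 genes of that length 992 were higher and 595 lower, with a median of 0.07. Of the 23 members from 2000 to under 3500 nt, none was higher and 10 were lower, with a median of -0.49; of all 3837 such genes 267 were higher and 1154 lower, with a median of -0.42. Of the 16 members of 3500 nt or more, 1 was higher and 6 lower, with a median of -0.75; of all 3298 such genes 164 were higher and 790 lower, with a median of -0.43. Against the ratio expected from length, 6 members were higher and 8 lower among 56 tested (25.0%, with backgrounds of 23.1% in all, 13.1% higher and 9.95% lower).

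The wider pathway was described with 4 lists of genes that are not members, to be read beside 13.0% higher, 22.2% lower and a median log2 ratio of -0.25 over all genes tested. Of 16 tested E2F, Rb and DREAM regulators, 1 was higher and 7 lower in replicate 2, with a median log2 ratio of -0.95; the highest were Tfdp1 (147 ± 47.7 CPM), E2f4 (79.1 ± 46.7 CPM) and E2f6 (57.3 ± 0.30 CPM). Of 31 tested genes of origins and the fork, none was higher and 11 were lower (median -0.68), with Rfc2 (89.0 ± 25.0 CPM), Rpa1 (84.0 ± 27.6 CPM) and Fen1 (81.7 ± 20.1 CPM) the highest. Of 24 tested genes of the spindle, kinetochore and cytokinesis, none was higher and 8 were lower (median -0.71), with Bub3 (194 ± 36.1 CPM), Cdca8 (51.1 ± 26.8 CPM) and Racgap1 (43.8 ± 32.6 CPM) the highest. Of 32 tested Cdk regulators and genes of protein destruction, 4 were higher and 8 lower (median -0.38), with Anapc5 (281 ± 63.8 CPM), Ccnl2 (195 ± 52.9 CPM) and Cul1 (133 ± 34.2 CPM) the highest. The 4 higher were Anapc13 (39.9 and 183 CPM), Ube2s (32.3 and 139 CPM), Anapc11 (38.8 and 69.8 CPM) and Cks1b (29.1 and 62.1 CPM), named after their values were seen. Under TMM scaling the lower calls became 4, 4, 6 and 4 and the higher calls 1, 1, 0 and 6 in the same order. Against the ratio expected from length the lower calls were 2, 4, 4 and 2 and the higher calls 1, 0, 0 and 4.

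Annotated transcripts were compared within each gene. Of the 35 members with 20 or more annotated reads in each library, 15 had reads of 1 annotated transcript only: Ccna2, Ccnb1, Ccnb2, Ccnd1, Cdc16, Cdc20, Cdc37, Cdc73, Cdk1, Cdk16, Cdk17, Mcm2, Pcna, Rrm1 and Rrm2. Of the other 20, none differed in the share of its most-read transcript (0 by Fisher's exact test with Benjamini-Hochberg adjustment over 3040 genes, and 0 at an unadjusted p under 0.05), with a background of 2.17% (0.921% higher and 1.25% lower). With all models grouped by intron chain, 1 of 41 members was higher and 6 were lower in the share of the leading chain (backgrounds 3.48% and 17.5%). This grouping took in fragments, and all single-exon models of a gene counted as 1 chain. The 1 higher was Cdk8, whose leading chain was its single-exon models (3 of 44 reads and 42 of 73). The 6 lower were Ccna2, Ccnb2, Ccnd3, Cdc26, Cdk16 and Cdk17, which are also among the members with a lower share of annotated reads given below. In 16 of the 20 the most-read transcript led by far: its share was 85.7% and 83.3% in Aurkb, 78.1% and 80.8% in Cdk10, 89.2% and 82.9% in Cdc34, and from 83.1% to 100% in Birc5, Ccnd2, Ccnd3, Ccng2, Cdc123, Cdc26, Cdk4, Cdk7, Cdk9, Cdkn2d, Mcm3, Mcm6 and Mcm7. In Cdc23, Cdk2, Cdkn2c and Mcm5, at least 2 transcripts each took 20% or more in both libraries.

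The pair of Cdk2 transcripts differs in the protein. Cdk2-201, of 7 exons, had 14 of 21 annotated reads in replicate 1 (66.7%, 95% Clopper-Pearson interval 43.0 to 85.4) and 25 of 42 in replicate 2 (59.5%, 43.3 to 74.4), and Cdk2-202, of 8 exons, had the other 7 and 17 reads. Cdk2-202 holds an added coding exon of 144 bases, exon 6, or 48 codons in frame, which takes the coding length from 894 to 1038 bases. The exon is shown from the GENCODE M21 transcript, with 12 bases of its neighbours on each side in lower case and the added exon in capitals.
Cdk2-202 exon 6 (minus strand, chr10:128699976-128700119): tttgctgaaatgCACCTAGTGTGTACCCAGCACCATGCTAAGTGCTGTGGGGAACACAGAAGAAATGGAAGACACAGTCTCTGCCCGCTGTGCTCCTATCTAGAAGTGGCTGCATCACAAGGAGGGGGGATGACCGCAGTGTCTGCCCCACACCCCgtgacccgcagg

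In Cdkn2c and Mcm5 the leading transcripts have the same coding length, and in Cdc23 they do not. Cdkn2c-202 had 50 of 91 annotated reads (54.9%) in replicate 1 and 56 of 108 (51.9%) in replicate 2, and Cdkn2c-201 the rest, both with a coding length of 504 bases. Mcm5-201 had 42.4% and 36.1% of annotated reads, and Mcm5-205 34.8% and 45.9%, both with a coding length of 2202 bases. The Cdc23 transcript of 16 exons had 68.6% and 76.9% and that of 17 exons 31.4% and 21.2%, with coding lengths of 1791 and 1713 bases. The 95% intervals of each share overlapped between the libraries.

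Replicate 2 held more partial reads of these genes. Over all members, 83.0% of reads in replicate 1 and 74.9% in replicate 2 were of annotated transcripts (Known), beside 79.84% and 73.93% over all genes. Incomplete splice matches (ISM), which carry part of an annotated chain of exons, took 6.08% and 12.4%, and Genomic models took 1.94% and 6.95%. Of 41 members with 20 or more reads in each library, 7 had a lower share of annotated reads in replicate 2 and none a higher one by Fisher's exact test with Benjamini-Hochberg adjustment over 6342 genes. The background was 20.3% of genes, nearly all of them lower (19.7%, against 0.568% higher), so the members' share was close to it.

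**Figure D5:**
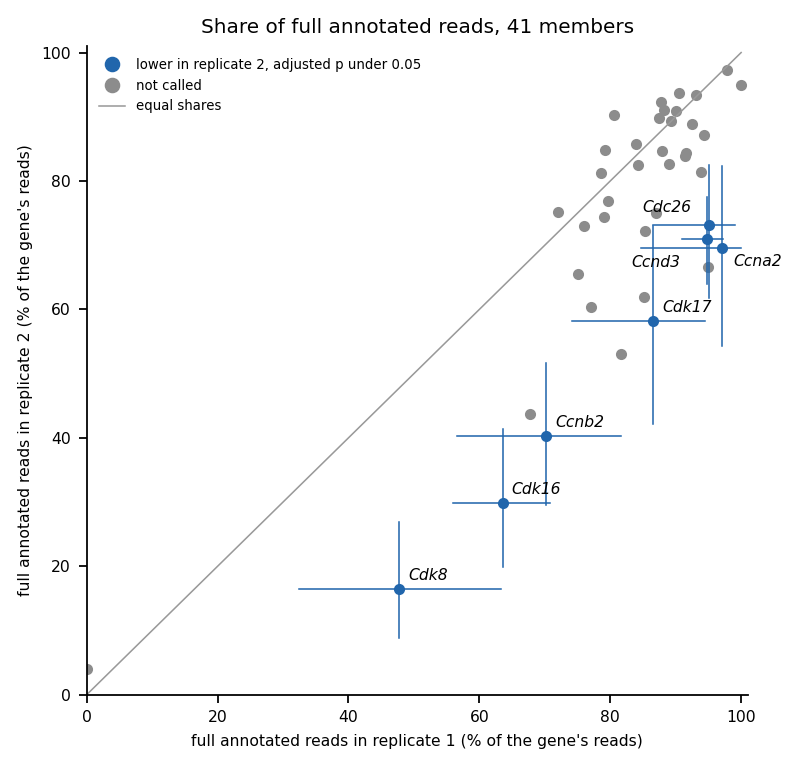
Share of full annotated reads (all Known reads, whatever the length of the annotated transcript) of each of 41 members in replicate 1 (x axis) and replicate 2 (y axis), in percent. Blue points with Clopper-Pearson 95% intervals are the 7 members called lower, which lie below the line of equal shares, and grey points were not called.

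The 7 members differed in the models they held beside the annotated ones. Cdk16 had 63.6% and 29.9% annotated reads (adjusted p = 2.06e-05, Fisher's exact test), with a single-exon Genomic model of 1268 nt within the last exon taking 29 reads in replicate 2 and a longer one of 3740 nt taking 11 in replicate 1. Ccnd3 had 94.7% and 71.0% (adjusted p = 2.41e-09, Fisher's exact test) and Ccnb2 70.2% and 40.2% (adjusted p = 0.00479, Fisher's exact test), with the last-exon models given above. Cdk8 had 47.7% and 16.4% (adjusted p = 0.00461, Fisher's exact test), and 40 of its 73 reads in replicate 2 were a single-exon model of 379 nt that shares 0 bases with annotated exons. Cdc26 had 95.2% and 73.1% (adjusted p = 0.00449), with a single-exon model of 402 nt outside annotated exons taking 12 reads in replicate 2, and Ccna2 had 97.1% and 69.6% (adjusted p = 0.0106), with an ISM model of its last 5 exons taking 9, both by Fisher's exact test. Cdk17 had 86.5% and 58.1% (adjusted p = 0.0152, Fisher's exact test), with an ISM model of 16 exons and 4174 nt taking 6 reads in replicate 2. That model (chr10:93160875-93241328) spans the whole of the most-read annotated transcript, Cdk17-201 (chr10:93160890-93241328, 3615 nt), and is not a shorter piece of it. Full annotated reads themselves numbered 33 and 32 for Ccna2 and 59 and 57 for Cdc26. With Genomic reads left out, 3 of 40 members were called (Ccnb2, Cdk17 and Ccnd1), all lower, with a background of 13.5% (12.3% lower and 1.2% higher). The single-exon models in the last exon of Ccnd1 were classed Genomic in replicate 1 (9 reads) and ISM in replicate 2 (34 reads). This setting thus left them out of replicate 1 only (21 of 22 reads annotated, against 28 of 64). With all reads Ccnd1 was not called (adjusted p = 0.119, Fisher's exact test).

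Cdc45 was read mainly as an incomplete chain. Its ISM reads numbered 23 of 35 and 16 of 25, and its NNC reads, with splice sites that the annotation lacks, 7 and 6. An ISM model of 19 exons took 20 of its 35 reads in replicate 1 and 15 of 25 in replicate 2, and full annotated reads numbered 0 and 1. The same incomplete chain thus led in both libraries.

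Chains of exons that the annotation lacks were found with 2 or more reads in each library in 10 members (15.4%), beside 12.1% of all genes, and numbered 11. Cdc37 had the most reads of such a chain, 14 and 15, with an alternative 3' splice site that lengthens an exon by 147 bases. Cdk9 had one with an alternative 3' splice site that lengthens an exon by 224 bases in 12 and 6 reads, and Mcm7 had one with another first exon in 8 and 9 reads. Cdk16 had a chain with a last intron longer by 621 bases in 10 and 4 reads. Cdk1 had a chain with an added exon of 137 bases in 3 and 2 reads, and Cdk8 and Mcm6 had chains with splice sites shifted by 30 and 4 bases. In Cdc123 a further chain of 8 exons had 2 and 3 reads, and Cdc16 skipped exon 2 in 2 and 2 reads.

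Skipped exons gave junctions that can be written out from the GENCODE M21 exons. In Cdk4, 6 and 3 reads skipped exon 2, of 234 bases, which holds the annotated start codon. In Cdc123 (chr2:5794294-5845164, minus strand, mm10), 2 and 10 reads skipped exon 9, of 123 bases, all of them coding. The 15 bases before the junction are in lower case and the 15 after it in capitals, and the coordinates run from the first to the last of these bases.
Cdk4 without exon 2 (plus strand, chr10:127063745-127064599): ttagccgagcgtaagGCTGATGGATGTCTG
Cdc123 without exon 9 (minus strand, chr2:5803961-5807445): aaaataagcttattgTTGTGTTCGATATAT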

How the data were processed

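For each library the authors deposited a table of raw counts of long reads per transcript model. Other values in the deposited tables are exon numbers and lengths in bases, and the deposited annotations hold positions on mm10. Models follow GENCODE M21 and carry TALON classes, per the file headers; no source used here gives the versions of aligner or TALON. Members and lists were chosen with earlier results of these data known, and every member is accounted for; the lists of the wider pathway and of tissue markers were written by hand.

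Gene reads are sums over the models of annotated genes without spike-ins. Genes with 10 or more reads were tested with Fisher's exact test (scipy 1.17.1, Python 3.11.15), with 0.5 reads added before log2 ratios; the test compares these 2 libraries, not conditions. Rescaled alternatives (edgeR 4.0.16 TMM, DESeq2 1.42.0 size factors, and the running median ratio over 501 genes ordered by length) used exact binomial tests. Isoform and annotated-share tests needed 20 reads in each library. The tests were tested on simulated data that held set differences and counting error only, so spread between libraries beyond counting was not covered. Intervals and the floor of 3 reads cover counting error only, since reads after PCR are not independent molecules. Named genes were all members of the core roles with 5 or more reads, the 5 highest others, every member that passed a test, and the 3 highest of each pathway list. Many members overlap a gene on the opposite strand, and no source used here states a strand setting.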

Additional observations from a re-analysis of the deposited data

Results flagged for a closer look

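Reads of unannotated antisense models, which no comparison above used, lay opposite 40 of the 65 members (71 reads in replicate 1 and 172 in replicate 2), and opposite 4 of them they exceeded the floor of 3 reads in both libraries. Opposite Cdkn1b there were 53 such reads (5 and 48), against 0 and 3 reads of the gene itself; the most-read model (41 reads in replicate 2) is listed as 1 base long at chr6:134925320, inside the annotated span of Cdkn1b (chr6:134920401-134925513, plus strand). Opposite Cdk6 there were 28 (15 and 13), against 11 and 10 of the gene. Opposite Cdk13 there were 27 (12 and 15), against 12 and 19 of the gene. Opposite Cdkn1a there were 21 (11 and 10), against 16 and 111 of the gene.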

How the results depend on the processing

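The count of members that differed between the libraries was 24, with 5 higher and 19 lower, and depended on the scaling. With TMM scaling 15 were called and 8 were lower, with DESeq2 size factors 9 were lower, against the ratio expected from length 14 were called and 8 were lower, and with a minimum of 2-fold 12 were called, 3 higher and 9 lower. The other settings (no filter on low counts, annotated models alone, Genomic models left out) gave 18 to 22 calls. No called member changed direction under any setting, while uncalled members changed sign: 6 under TMM scaling and under DESeq2 size factors (Ccna2, Cdc26, Cdc37, Cdkn2c, Mcm3 and Pcna), 10 against the ratio expected from length, 6 on annotated models alone and 1 without Genomic models. TMM scaling ended 11 calls and added 2. With all models grouped by intron chain, fragments included, 7 members differed in the share of the leading chain, against 0 in the share of the most-read annotated transcript. With Genomic reads left out 3 rather than 7 differed in annotated share. A minimum of 10 reads in place of 20 changed neither count. Unannotated chains numbered 43 with 1 read and 3 with 5 reads required in each library, against 11 with 2 reads. Leaving out replicate 1 or 2 gave 48 and 52 members at 10 CPM or more, against 46, and a summed level of 3003 and 3884 CPM, against 3443; the tests between the libraries cannot be run with a library left out. No paired analysis was possible because the series has 1 group. With 2 libraries of 1 group and the depth given above, members under 10 reads were left out of the tests by choice and none passed without that filter, and no value here measures the spread between animals.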
